A study of Saccharomyces cerevisiae with 7 samples.

Results

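The wide internal Rph1 peaks are 224 of the 731 regions (30.6%) in a deposited table of Rph1 chromatin immunoprecipitation sequencing (ChIP-seq) signal in budding yeast. The first and last peak of each of the 16 chromosomes were left out, and the remaining peaks of 3200 bp or more were taken. Their widths ran from 3217 to 8927 bp with a median of 4195 bp. Together they spanned 1008 kb, 46.6% of the length of all peaks, and held 47.6% of the summed peak signal averaged over the libraries. The other internal peaks were 273 of 2000 to 3192 bp and 202 of 1083 to 1995 bp.

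Rph1 is a demethylase of the JmjC family that removes methyl groups from lysine 36 of histone H3, a mark that the methyltransferase Set2 lays down over transcribed genes behind RNA polymerase II. It also carries zinc fingers that bind DNA, and it is known as a repressor of the photolyase gene PHR1. Ppm1 methylates the catalytic subunit of the phosphatase PP2A, using S-adenosylmethionine as the methyl donor. The series title links the methylation state of PP2A with the demethylation of histones.

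All strains were MATa haploids of the CEN.PK background, and in all of them the chromosomal RPH1 gene carried an HA tag with a hygromycin marker, so no untagged or input library is among the samples. The groups were wild type moved from YPL to SL for 1 h (2 libraries), the deletion ppm1::kanMX in YPL (2 libraries), the substitution RPH1-S412A in YPL (1 library) and wild type in YPL (2 libraries). YPL is a rich medium with lactate at 2% beside peptone at 2% and yeast extract at 1%, and its cells were taken in log phase near an OD600 of 1. SL is a minimal lactate medium: the label of its first library names yeast nitrogen base lacking amino acids, and that of the second ammonium sulfate at 0.5% and lactate at 2%. S412A puts alanine in place of a serine of Rph1. The labels do not say whether replicates were separate cultures, so the p-values cover no more than the spread among the libraries, which may be technical.

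Positions are those of the table, on the build sacCer2 (per the submitters' processing notes), counted from 1. No annotation of that build was used here, so no gene was assigned to a peak, and regions are named by position. Signal is the deposited value of a peak, and within a library all values are whole multiples of 1 step, as reads scaled to a common total would be. Signal per kb is that value divided by peak width, and levels of different peaks are compared only per kb. Read in that way, the steps imply 13808893 to 34820208 reads per library and 2619 reads at the weakest of the 224 peaks in any library, a counting error of 1.95%. The 5 members nearest the width threshold were 3217, 3226, 3232, 3249 and 3259 bp wide, with 2012, 3258, 2193, 1709 and 1504 signal per kb averaged over libraries. The 5 internal peaks nearest below it were 3192, 3181, 3171, 3170 and 3169 bp wide, with 1934, 2026, 3139, 1555 and 1976 per kb.

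The level at the wide peaks was lowest in S412A. The median wide peak held 2419 and 1937 signal per kb in the SL libraries, 2213 and 1951 in the ppm1 deletion, 1745 in S412A and 2142 and 2269 in wild type in YPL. The SL libraries differed from each other by more than either differed from wild type in YPL, whereas S412A lay below all of the other 6 libraries. Over all 731 peaks S412A also had the lowest median, 1792 per kb, with 1820 in the second SL library. As shares of the library, the wide peaks held 10.9% ± 1.89 (SD, n = 2) in SL, 9.97% ± 0.951 (n = 2) in the ppm1 deletion, 8.21% in S412A (95% Wilson interval 8.20% to 8.22%, from the implied reads, counting error only) and 10.6% ± 0.491 (n = 2) in wild type in YPL. A lower share of reads in peaks over a whole library and less Rph1 at each peak cannot be told apart with values scaled to a common total.

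Peaks also spread over a narrower range in S412A. The upper quartile of signal per kb was 1.73 and 1.44 times the lower in the SL libraries, 1.57 and 1.45 times in the ppm1 deletion, 1.32 times in S412A, and 1.55 and 1.70 times in wild type in YPL. This was not particular to the wide peaks. The ratio was also smallest in S412A over all peaks (1.29), at internal peaks of 2000 to 3192 bp (1.29) and at the narrower ones (1.18). Reads spread evenly over the 11921 kb that reach to the last peak of each chromosome would give 1846 per kb. Under that level lay 60 and 98 of the 224 peaks in SL, 68 and 92 in the ppm1 deletion, 139 in S412A, and 81 and 77 in wild type in YPL. In S412A that is 62.1% of the wide peaks, against 57.2% of all peaks, 69.2% of those of 2000 to 3192 bp and 41.6% of the narrower ones. The sources used here do not say what the scaled total covers, so a peak under that level is not shown to lack Rph1.

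**Figure D1:**
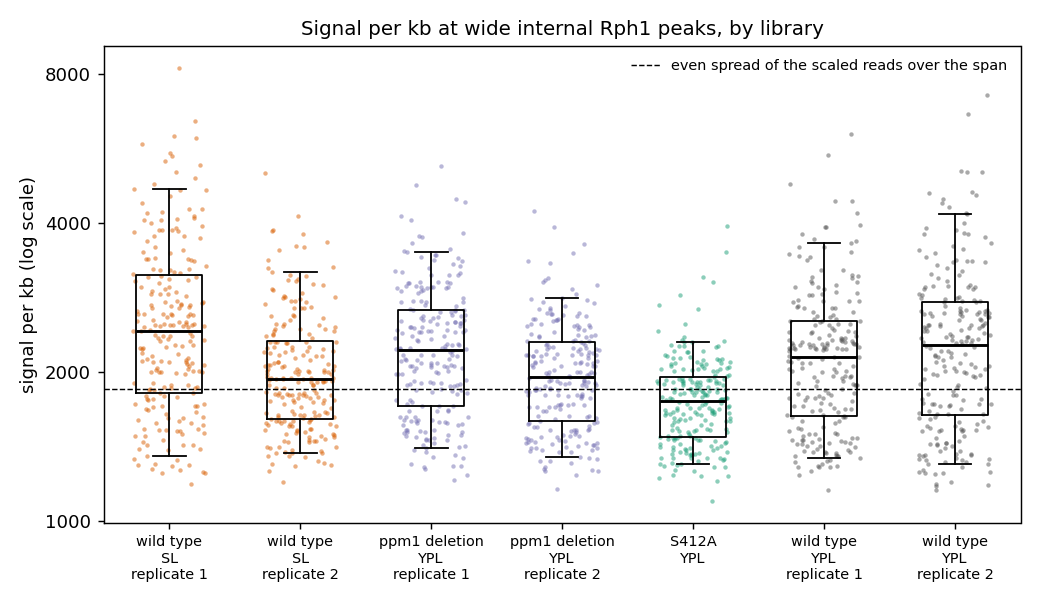
Signal per kb (log scale) of the 224 wide internal peaks in each of the 7 libraries, with boxes from lower to upper quartile, a line at the median, whiskers at the 5th and 95th percentiles, and a dashed line at an even spread of reads (1846 per kb). The S412A library has the lowest median (1745) and the shortest box, and the SL libraries have medians of 2419 and 1937.

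Width told little of height among these peaks. The rank correlation of width with signal per kb, over 224 peaks that share their libraries, was 0.16 in SL, 0.14 in the ppm1 deletion, 0.16 in S412A and 0.13 in wild type in YPL. With the mean of the 7 libraries it was 0.20. The 101 peaks of under 4000 bp had a median of 1992 per kb over all libraries, and the 25 of 6000 bp or more had 2265. The widest peak, chrVII:647850-656776 (8927 bp), held 3153 and 2300 per kb in SL, 1841 and 1702 in the ppm1 deletion, 1539 in S412A and 1707 and 1729 in wild type in YPL. Its SL libraries lay above all others. The next widest, chrI:138641-146935 (8295 bp), held 4279 and 2927 per kb in SL, 3351 and 2717 in the ppm1 deletion, 2157 in S412A and 2780 and 2948 in wild type in YPL, so the SL and YPL libraries overlapped. The others of the 5 widest were chrXII:1063830-1071424, chrII:371401-378863 and chrIX:264628-272047, at 2680, 2077 and 1848 per kb over all libraries.

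The highest peaks per kb lay on chromosome XVI. At chrXVI:643761-647151 signal per kb was 6008 and 3879 in SL, 4772 and 3923 in the ppm1 deletion, 3045 in S412A, and 6075 and 7257 in wild type in YPL. At chrXVI:430771-434815 it was 5466 and 3662 in SL, 5215 and 4239 in the ppm1 deletion, 3108 in S412A, and 5502 and 6661 in wild type in YPL. Both were lowest in S412A and highest in wild type in YPL. Over all libraries the pair averaged 4994 and 4836 per kb, against 3619 and 3617 at the next peaks, chrXIV:628228-634839 and chrVII:478823-485350. The rest of the 10 highest were chrXII:367788-371761, chrXII:734289-738513, chrIV:1506595-1510455, chrXIV:557240-561414, chrVII:383144-389477 and chrXIV:405182-408407, with 3258 to 3539 per kb.

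The lowest peaks hardly varied between libraries. They were chosen by their mean over the same 7 libraries, so a peak high in any group could hardly be among them. At chrVI:176975-180601 signal per kb was 1332 and 1373 in SL, 1376 and 1324 in the ppm1 deletion, 1329 in S412A, and 1283 and 1248 in wild type in YPL. The other 4 lowest, chrII:401646-405183, chrIV:917537-921202, chrIII:220622-224051 and chrVII:662187-665558, averaged 1355 to 1378 per kb over the libraries. None of these 5 passed the threshold in any of the 5 comparisons below.

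Wide peaks were found on every chromosome. They numbered 23 each on II and IV, 22 on XVI and 21 on VII, down to 5 each on I and IX. As a share of the internal peaks of a chromosome they ran from 20.8% on IX (5 of 24) to 56.3% on VI (9 of 16). Between the groups, a wide peak's highest and lowest level differed by a median of 0.62 on the log2 scale (range 0.10 to 2.26). The highest group was SL at 107 peaks, the ppm1 deletion at 28, S412A at 2 and wild type in YPL at 87. The lowest group was SL at 54, the ppm1 deletion at 4, S412A at 146 and wild type in YPL at 20.

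Differences were tested with limma on log2 signal over all 731 peaks and 7 libraries, with Benjamini-Hochberg adjusted p-values under 0.05 called. The first comparison asks where Rph1 sits after 1 h in SL. Of the 224 wide peaks 62 rose and 63 fell. Over all 731 peaks 23.3% rose and 36.7% fell, against 27.7% and 28.1% of the wide peaks. The risen peaks stood at a median of 2933 per kb in SL, against 1546 in YPL, and the fallen ones at 1747 in SL, against 2711 in YPL. The median log2 change was 0.02 over the wide peaks, -0.20 over the other 475 internal peaks and -0.09 over all peaks. The wide peaks were thus divided nearly evenly between the directions. Of the other 475, the wider 273 had a median of -0.04, with 26.0% risen and 35.2% fallen. The narrower 202 had a median of -0.29, with 16.3% risen and 52.5% fallen. The difference from the wide peaks was thus larger at the narrower ones. Called shares are not on equal terms across widths, since the fitted spread was larger at wide peaks (median SD 0.19, against 0.14 over all). The smallest called change in SL, up or down, was log2 0.34 at the wide, 0.29 at the middle and 0.27 at the narrow peaks. This limit applies to the shares in the other comparisons too.

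The order of the wide peaks in SL was almost unrelated to their order in YPL. Across the 224 peaks log2 signal per kb correlated at 0.12 to 0.16 between an SL and a YPL library of wild type. Between replicates it correlated at 0.988 in SL and 0.993 in YPL. Between the ppm1 deletion and wild type in YPL it was 0.92 to 0.94, and between S412A and wild type in YPL 0.87. Without division by width the SL and YPL libraries correlated at 0.46 to 0.52, a measure that includes the width all libraries share. These coefficients describe the libraries, as peaks are not independent replicates. For peaks of 2000 to 3192 bp the SL libraries correlated with YPL at 0.31 to 0.39 per kb, and for narrower ones at 0.20 to 0.23, while rank correlations were 0.08 to 0.12 at the wide, 0.08 to 0.16 at the middle and 0.17 to 0.20 at the narrow peaks.

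Of the 56 wide peaks highest per kb in SL, 19 were also among the 56 highest in YPL and 16 were among the 56 lowest there. Of the 56 lowest in SL, 6 were among the 56 highest in YPL. Among the 273 middle peaks, 24 of the 68 highest in SL were also among the 68 highest in YPL and 10 were among the 69 lowest there, and among the 202 narrow peaks 24 of 51 were in both and 14 were among the 51 lowest in YPL. These overlaps were not tested. In contrast, 48 of the 56 highest in the ppm1 deletion, and 46 of the 56 highest in S412A, were among the 56 highest in wild type in YPL, and 0 were among the 56 lowest there.

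**Figure D2:**
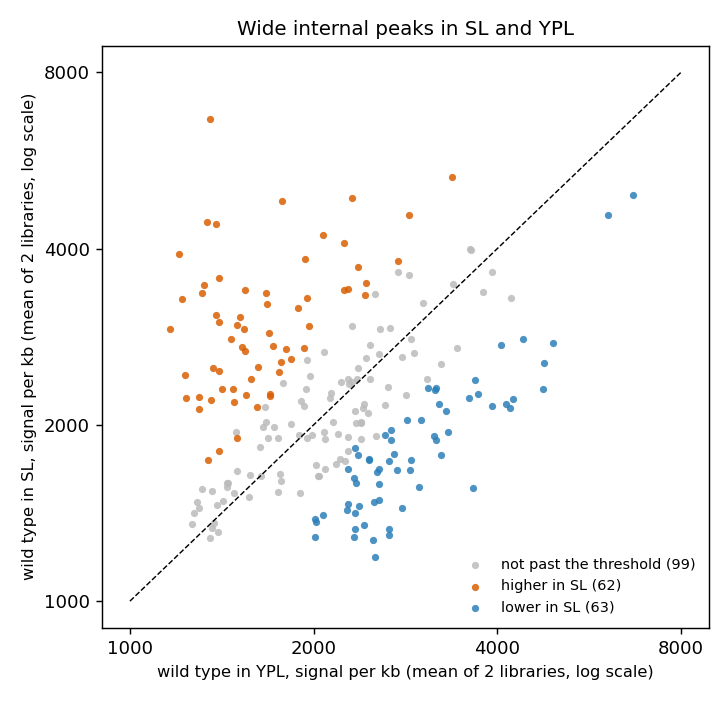
Signal per kb of the 224 wide internal peaks in wild type, SL on the vertical and YPL on the horizontal axis (means of 2 libraries, log scales), with a dashed line of equal values. The 62 risen peaks reach 6663 per kb in SL, the 63 fallen ones start at 2010 per kb in YPL, and the cloud has no clear slope.

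The wide peaks held the largest rises of the whole table. All of the 10 largest log2 rises in SL over 731 peaks, 13 of the largest 20 and 31 of the largest 50 were wide internal peaks, against 3, 8 and 18 of the largest falls. Rises of at least 1 on the log2 scale were seen at 15 of the 224 wide peaks, at 7 of the 273 middle ones and at 1 of the 202 narrow ones. These counts were not tested.

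The largest rise was at chrV:339080-343976, which held 8260 and 5066 per kb in SL, against 1377 and 1332 in YPL (log2 2.26, SE 0.20, limma adjusted p = 3.8e-27). At chrX:678334-683859 signal per kb was 5352 and 3530 in SL, against 1376 and 1303 in YPL (log2 1.70). At chrVIII:25306-28522 it was 4676 and 3146 in SL, against 1258 and 1152 in YPL (log2 1.67). Each of these was near the lowest level of any wide peak in YPL, and its SL libraries did not overlap the YPL ones. The p-value of the chrV peak uses a spread taken from the trend over peaks and not the gap between its own SL libraries.

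At chrVI:211796-217106 signal per kb was 5256 and 3573 in SL, against 1439 and 1325 in YPL (log2 1.65). At chrII:379694-383475 it was 5794 and 3858 in SL, against 1703 and 1852 in YPL (log2 1.41). The chrII peak started from the highest YPL level of the 10 largest rises. The remaining 5, chrXII:322695-327429, chrXVI:127800-132797, chrXIV:114645-119291, chrIV:1452476-1456042 and chrXII:16404-20226, rose by log2 1.31 to 1.41, and the largest limma adjusted p among all 10 was 9.4e-12. In the ppm1 deletion and in S412A none of the 10 was called, with 1162 to 1921 per kb in the ppm1 libraries and 1096 to 1600 in S412A.

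The largest fall among the wide peaks was at chrXV:778118-781481, which held 1613 and 1506 per kb in SL, against 3502 and 3799 in YPL (log2 -1.23, SE 0.19, limma adjusted p = 1.3e-09). At chrXVI:39995-43601 signal per kb was 1186 and 1196 in SL, against 2399 and 2640 in YPL (log2 -1.08). At chrVII:383144-389477 it was 2534 and 2065 in SL, against 4432 and 5088 in YPL (log2 -1.05). The chrXVI peak thus reached the lowest SL level of any wide peak, while the chrVII peak fell from one of the highest levels in YPL and stayed near the SL median.

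At chrXI:614006-618961 signal per kb was 1296 and 1297 in SL, against 2531 and 2777 in YPL (log2 -1.03). At chrXV:91566-94931 it was 1304 and 1350 in SL, against 2640 and 2672 in YPL (log2 -1.0). In both the SL libraries were nearly equal, unlike at the risen peaks, where the first SL library was well above the second. The other 5 of the 10 largest falls were chrXI:19212-24885, chrXII:636388-640476, chrVII:363721-367022, chrXI:228773-234370 and chrV:138168-142982, with log2 changes of -0.98 to -0.94.

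**Figure D3:**
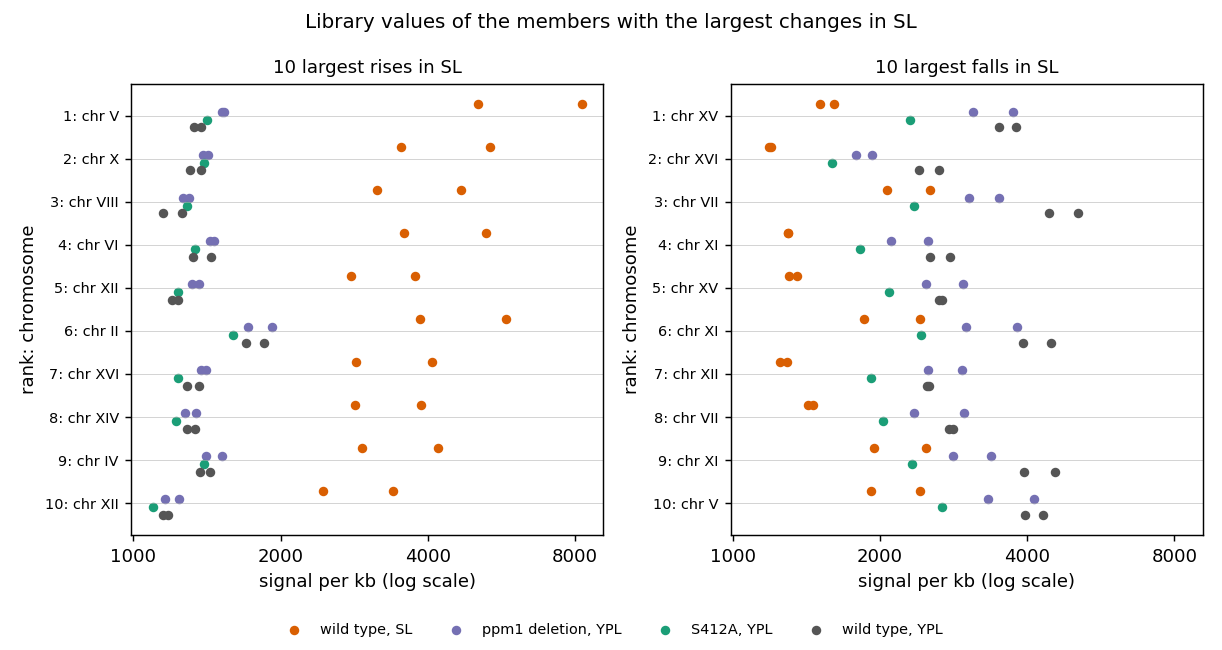
Signal per kb (log scale) in every library for the wide peaks with the 10 largest rises (left) and the 10 largest falls (right) in SL, ranked from the top and named by chromosome, with a colour per group. At all 20 the SL points stand clear of the wild-type YPL points, and at the 10 rises the ppm1 and S412A points stay between 1096 and 1921.

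Neighbouring wide peaks did not share a direction in SL more often than not. In 70 cases the next peak along the chromosome was also a wide internal peak, with gaps of 108 to 66738 bp (median 9416). The SL change had the same sign in 32 of these 70 pairs, and in 6 of the 13 pairs with a gap under 2000 bp. In 13 of the 70 pairs one peak rose and the other fell, in 5 both rose and in 7 both fell. A pair chosen after its values were seen is chrII:371401-378863 and chrII:379694-383475, 830 bp apart. The left peak fell to 1642 and 1526 per kb in SL, against 2458 and 2659 in YPL (log2 -0.69), and the right peak rose by log2 1.41 as given above.

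The change in SL went with the level in other YPL libraries. To keep the same libraries out of both measures, the wide peaks were put into 4 classes of 56 by their level in the ppm1 deletion. The ppm1 libraries correlated with wild type in YPL at 0.92 to 0.94, and the SL libraries at 0.12 to 0.16. A falling change across the classes follows from these correlations and is no separate evidence. From the lowest to the highest class, the median log2 change in SL over YPL was 0.54, 0.17, -0.25 and -0.48. In the lowest class 33 rose and 1 fell, in the next 17 rose and 9 fell, in the third 10 rose and 19 fell, and in the highest 2 rose and 34 fell. The other 475 internal peaks, put into 4 classes of 118 or 119 in the same way, had medians of 0.32, -0.09, -0.41 and -0.43, with 65 risen and 1 fallen in the lowest class and 7 risen and 81 fallen in the highest, so the same order of classes was seen there. Median levels in SL were 2197, 2085, 2025 and 2305 per kb from the lowest class to the highest, against 1399, 1928, 2365 and 3163 in YPL. The classes thus stood at about the same level in SL. With the classes set by S412A the medians were 0.60, 0.15, -0.25 and -0.46.

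**Figure D4:**
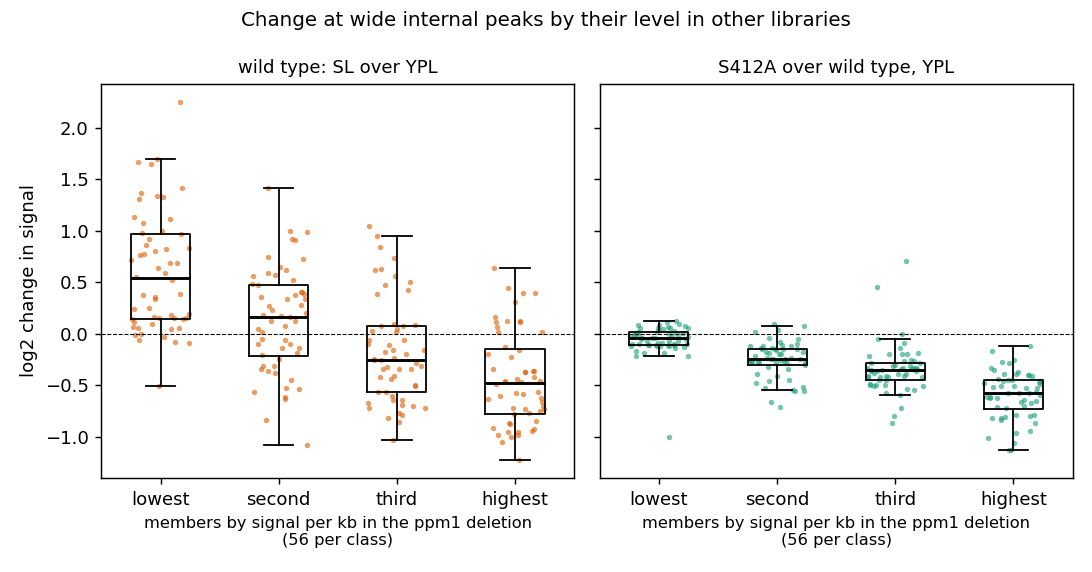
Log2 change of the wide internal peaks in SL over YPL (left) and in S412A over wild type (right), by 4 classes of 56 peaks ordered by signal per kb in the ppm1 deletion, with boxes at the quartiles and whiskers to the farthest point within 1.5 times the box length. Medians run from 0.54 to -0.48 in SL and from -0.05 to -0.58 in S412A, with rises common in SL and rare in S412A.

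Of the 125 called wide peaks, 70 remained when wild-type YPL library 1 was left out and 56 when library 2 was. Leaving out the first SL library gave 44 higher and 85 lower, and leaving out the second gave 79 higher and 51 lower.

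Loss of Ppm1 in YPL is the subject of the second comparison, with wild type in the same medium on the other side. Of the 224 wide peaks 3 fell and 0 rose, against 1.23% of all 731 peaks lower and 0% higher. At an unadjusted p under 0.05 limma gave 1 wide peak higher and 16 lower. The median log2 change was -0.02 over the wide peaks and -0.01 over all peaks.

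At chrXVI:191854-195645 signal per kb was 1208 and 1239 in the ppm1 deletion, against 2341 and 2591 in wild type in YPL (log2 -1.01, SE 0.16, limma adjusted p = 2.6e-07). The ppm1 libraries thus lay at the level of the lowest wide peaks. S412A held 1230 there and the SL libraries 1835 and 1648, and the ppm1 deletion was below SL by log2 -0.51 (limma adjusted p = 0.0056). At chrXIV:557240-561414 signal per kb was 2982 and 2591 in the ppm1 deletion, against 4795 and 5076 in wild type in YPL (log2 -0.83, limma adjusted p = 0.0034). At chrVII:621688-626965 it was 2771 and 2389 in the ppm1 deletion, against 3808 and 4620 in wild type in YPL (log2 -0.70, limma adjusted p = 0.027). The chrXIV and chrVII peaks were high in wild type in YPL and remained above the median wide peak in the ppm1 deletion.

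The falls next by p did not pass: chrXVI:643761-647151 (log2 -0.62, limma adjusted p = 0.098) and chrVII:383144-389477 (-0.54, adjusted p = 0.193). The 5 positive changes with the smallest p, none past the threshold, were led by chrI:70512-73836, which held 2465 and 2059 per kb in the ppm1 deletion, against 1780 and 1726 in wild type (log2 0.36, limma adjusted p = 0.650). The others, chrXII:231377-235390, chrXI:325359-328896, chrX:451104-458474 and chrIII:134304-139767, had log2 changes of 0.25 to 0.29 (limma adjusted p = 0.997).

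Median-centring of the libraries gave 1 higher and 18 lower wide peaks in the ppm1 deletion, and quantile normalization gave 6 higher and 19 lower, with the 3 peaks above included both times. Leaving out a wild-type YPL library left the chrXVI peak alone (limma adjusted p = 0.0043 and 0.047), leaving out a ppm1 library left 0, and leaving out an SL library gave 10, while per kb the chrXIV and chrVII peaks missed the threshold (limma adjusted p = 0.097 and 0.247).

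The third comparison is of S412A, of which there was 1 library, with wild type, both in YPL. Of the 224 wide peaks 33 (14.7%) fell and 1 (0.446%) rose, against 17.5% of all peaks lower and 1.92% higher. The smallest called change, up or down, was log2 0.55 at wide peaks and 0.39 over all peaks, so these shares rest on unlike limits. The wide peaks lay below wild type at 199 of 224, and all peaks at 635 of 731. The median log2 change was -0.28 over the wide peaks, against -0.25 over all peaks. The 32 outermost peaks, which are no members, went the other way, with a median of 0.35 and 13 higher and 6 lower. The 33 fallen peaks stood at a median of 2164 per kb in S412A, against 3650 in wild type in YPL.

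The highest wild-type peaks were among them. Signal per kb at chrXVI:643761-647151 was 3045 in S412A, against 6075 and 7257 in wild type in YPL (log2 -1.12, SE 0.24, limma adjusted p = 2.0e-04). At chrXVI:430771-434815 it was 3108 in S412A, against 5502 and 6661 in wild type in YPL (log2 -0.96, limma adjusted p = 0.0012). In S412A only a pair of wide peaks on chromosome XII stood higher.

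The largest fall in S412A was at chrXIV:557240-561414, with 2255 per kb in S412A, against 4795 and 5076 in wild type in YPL (log2 -1.13, limma adjusted p = 2.3e-04). At chrVII:621688-626965 signal per kb was 2010 in S412A, against 3808 and 4620 in wild type in YPL (log2 -1.06). At chrXVI:191854-195645 it was 1230 in S412A, against 2341 and 2591 in wild type in YPL (log2 -1.0). These are the 3 peaks that fell in the ppm1 deletion, in a comparison that shares the wild-type YPL libraries. The rest of the 10 largest falls were chrVII:383144-389477 (log2 -1.01), chrII:133469-138284 (-0.95), chrXI:228773-234370 (-0.87), chrIV:1506595-1510455 (-0.87) and chrXV:986150-990556 (-0.84).

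The chrIV peak went opposite ways in SL and S412A. Its signal per kb was 6455 and 4140 in SL (log2 0.62, limma adjusted p = 0.0042), 2532 and 2087 in the ppm1 deletion (log2 -0.55, adjusted p = 0.227) and 1848 in S412A (adjusted p = 0.0064), against 3145 and 3603 in wild type in YPL.

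Falls in S412A also went with the level of the peak. The ppm1 libraries that set the classes correlated with wild type in YPL at 0.92 to 0.94. The range of S412A was narrower, with quartiles apart by 1.32 times, against 1.55 and 1.70 in wild type in YPL. A falling change across the classes follows from these values and is no separate evidence. In the 4 classes of 56 set by the ppm1 deletion the median log2 change was -0.05, -0.24, -0.35 and -0.58 from lowest to highest. The called falls numbered 1, 4, 3 and 25, and the single rise lay in the third class. Among the other 475 internal peaks the medians were -0.03, -0.24, -0.28 and -0.41 and the called falls 1, 13, 24 and 51, so the wide peaks shared this order with the rest.

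The wide peak that rose in S412A lay next to the outermost peak of the left arm of chromosome XII. At chrXII:5977-11700 signal per kb was 3954 in S412A, against 2239 and 2628 in wild type in YPL (log2 0.71, SE 0.24, limma adjusted p = 0.025). At the other end of the same chromosome, chrXII:1063830-1071424 held 3491 per kb in S412A, against 2411 and 2699 in wild type in YPL (log2 0.45, limma adjusted p = 0.138, not past the threshold). The SL libraries held 2871 and 2341 per kb at the left peak and 2848 and 2439 at the right one, and the ppm1 libraries 2450 and 2162, and 2554 and 2315. S412A was the highest library at both.

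Of the wide peaks these 2 lay closest to the outer edge of an outermost peak, at 5976 and 6906 bp. That distance is not measured to the end of the chromosome. Of the 18 wide peaks next to an outermost peak, the other 16 lay below wild type in S412A and 5 of them fell. The next in distance, chrI:42195-45941 at 9054 bp, had a log2 change of -0.52 (limma adjusted p = 0.085). The sources used here do not say how reads that map to several places were treated. Other positive changes were small, the next by p being chrX:425391-429040 (log2 0.13), chrVIII:25306-28522 (0.10) and chrVII:154043-157663 (0.09), none of them past the threshold.

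**Figure D5:**
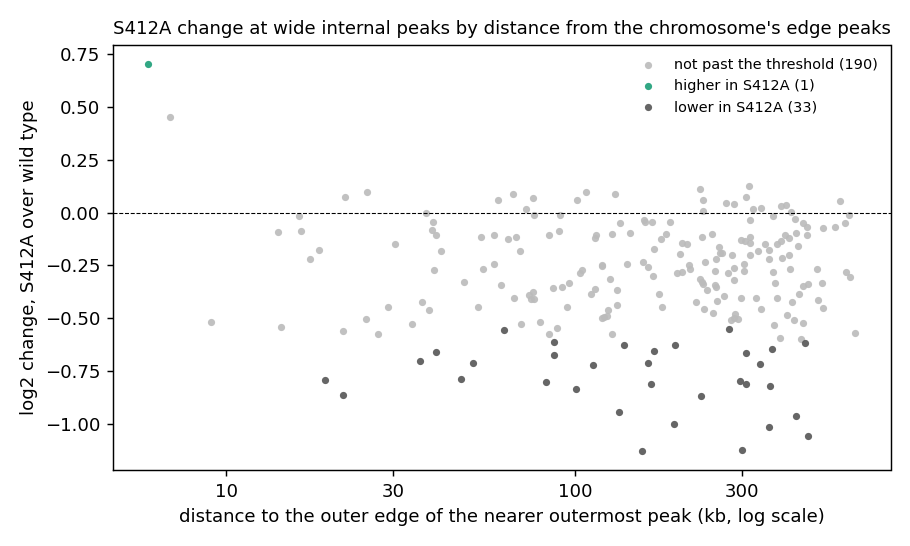
Log2 change of the 224 wide internal peaks in S412A over wild type in YPL (vertical axis) against the distance in kb, on a log scale, to the outer edge of the nearer outermost peak of the chromosome. The 33 fallen peaks start at 19211 bp and reach 464104 bp, and the pair of high points on the left are the chromosome XII peaks with log2 changes of 0.71 and 0.45.

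The S412A counts rest on a spread borrowed from the other groups. Leaving out wild-type YPL library 1 gave 4 called and library 2 gave 0, a ppm1 library 0 each time, and the first or second SL library 82 and 83, and the XII rise was lost without the outermost peaks in the fit (limma adjusted p = 0.060). The median of all 731 peaks was log2 -0.25 in S412A: relative to that median (median-centred libraries) 6 wide peaks were higher and 34 lower, and quantile normalization gave 31 in each direction.

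The departures were also compared with each other. Set against wild type in SL, the ppm1 deletion (in YPL) had 38 wide peaks higher and 61 lower, 17.0% and 27.2% of them, against 25.4% and 21.3% of all peaks. The largest difference upward was at chrXV:778118-781481, with 3745 and 3106 per kb in the ppm1 deletion, against 1613 and 1506 in SL (log2 1.13, limma adjusted p = 3.1e-08). Next came chrXII:636388-640476, with 2936 and 2504 per kb in the ppm1 deletion, against 1250 and 1292 in SL (log2 1.09). At chrII:603922-607643 signal per kb was 2651 and 2178 in the ppm1 deletion, against 1256 and 1321 in SL (log2 0.90). At each of these the ppm1 libraries lay near or above the median wide peak, and the SL libraries under it.

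The others of the 10 largest in that direction were chrXV:91566-94931, chrVII:363721-367022, chrXI:614006-618961, chrXVI:404352-409873, chrVII:436972-441908, chrXIV:61382-64719 and chrV:138168-142982 (log2 1.03 to 0.79). The 10 largest differences downward, log2 -2.09 to -1.26, were the 10 peaks named for their rise in the same SL libraries and are no separate evidence. Of the upward ones, chrXV:778118-781481, chrXII:636388-640476, chrXV:91566-94931, chrVII:363721-367022, chrXI:614006-618961 and chrV:138168-142982 were also among the 10 largest falls in SL. The upward differences use the same SL libraries as those falls and are no separate evidence either. Quantile normalization gave 85 higher and 75 lower. Leaving out the first SL library gave 66 higher and 40 lower, the second SL library 32 and 82, the first ppm1 library 10 and 33, and the second ppm1 library 30 and 29.

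No wide peak passed between S412A and the ppm1 deletion, against 0.274% of all peaks higher and 0% lower, while limma gave 2 wide peaks higher and 20 lower at an unadjusted p under 0.05. The median log2 difference was -0.26 over the wide peaks and -0.24 over all peaks. The largest positive differences were again at the chromosome XII pair, chrXII:5977-11700 (log2 0.78, limma adjusted p = 0.106) and chrXII:1063830-1071424 (0.52, adjusted p = 0.243). The next by p, chrVI:16191-20209, chrVII:154043-157663 and chrXVI:191854-195645, differed by log2 0.05, 0.05 and 0.01. The lower ones with the smallest p were chrXV:27253-34173 (log2 -0.62), chrXVI:430771-434815 (-0.60), chrXV:778118-781481 (-0.57), chrIX:21655-28946 (-0.56) and chrXIV:628228-634839 (-0.53), with limma adjusted p-values of 0.178 to 0.243. With 1 SL library left out at a time, the first or the second, the median log2 difference over the wide peaks stayed at -0.26. With median-centred libraries 2 wide peaks were higher and 0 lower.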

How the data were processed

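Per the labels' protocols, crosslinking took 15 min in 1% formaldehyde, and chromatin from 50 OD600 units was sonicated and immunoprecipitated. Bowtie2 and the build sacCer2 are named in the submitters' processing notes, without a version. The peak caller, read filters, peak merging, handling of repeats and any use of input do not appear in the sources used here. The deposited table holds a signal value per peak and library, scaled by the authors. All values were whole multiples of 1 step per library (100% within 0.001), which equals 22000000 over a whole number, and reads per peak were implied from that. This comes from the values alone.

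Widths and signal per kb were computed in Python 3.11.15 with pandas 2.3.3. Tests used limma 3.58.1 under R 4.3.3, a linear model per peak with empirical Bayes and a variance trend (lmFit, eBayes), on log2 of the deposited signal with pseudocount 0, all 7 libraries and 731 peaks, group as the only term, 3 residual degrees of freedom. The prior degrees of freedom were infinite, so a peak's spread was the trend over mean signal (median SD 0.19 at wide peaks, 0.14 over all). S412A took its spread from the other groups. The script was tested on simulated data. Peaks were named by a rule: per comparison, the 10 largest called changes in each direction with no overlap of libraries, or the 5 with the smallest p where fewer than 5 passed; the 10 highest, 5 lowest and 5 widest. The peaks and comparisons were chosen with earlier results of these data known. Planned gene lists were not run, since no annotation of the build was used here. Alternatives covered a pseudocount, filters, scaling, the variance model, replicate numbers and each library left out.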

Additional observations from a re-analysis of the deposited data

How the results depend on the processing

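Without any library left out, the 125 wide peaks called in SL stayed within 1.5 times under every alternative run, but their median log2 change was -0.16 once the peaks lowest per kb were dropped, which left 174 wide peaks with 42 risen and 57 fallen. The 3 called in the ppm1 deletion became 19 with median-centred libraries, 25 with quantile normalization, 8 with no trend, 8 with only the 2 groups compared and 1 per kb (added after seeing the data). The 34 called in S412A over wild type became 22 without outermost peaks, 62 with quantile normalization, 58 with no trend, 121 with only the 2 groups and 9 per kb (added likewise), and the median log2 change became -0.044 with median-centring and 0.062 with quantile normalization. The 99 between the ppm1 deletion and SL became 150 and 160 under those scalings. Between S412A and the ppm1 deletion, where 0 passed, they gave 2 and 11 with medians of -0.042 and 0.031, and no trend gave 1. Leaving out 1 library gave 56 to 130 in SL, 0 to 10 in the ppm1 deletion, 0 to 83 in S412A, 43 to 114 between the ppm1 deletion and SL and 0 to 12 between S412A and the ppm1 deletion. The difference of S412A over the ppm1 deletion at chrXVI:191854-195645 (log2 0.01) was -0.011 without the first ppm1 library and 0.026 without the second. Each peak named in a comparison was also set against each alternative in turn. Of these pairs of peak and alternative, 42 passed under that alternative and not in the reported fit. In 64 pairs the peak passed in the reported fit and not under that alternative. A further 1084 kept direction and side, and 1, of the peak above, changed sign. Over wide peaks, deviations of same-numbered libraries correlated at -0.29 for SL and wild type in YPL, and at -0.59 for ppm1 and wild type in YPL. For ppm1 and SL the value was 0.18. The negative values mean that same-numbered libraries deviated in opposite ways from those of wild type in YPL. Whether libraries were handled in pairs was not tested. The replicate block gave 116 in SL, 2 in the ppm1 deletion and 99 between them, and with the wild-type YPL numbers crossed, a pairing added after seeing the data, 158, 22 and 144. An edgeR test on reads recovered from the signal was planned and not run: the reads are implied by the steps of the values, and no peak is low enough to show the worth of 1 read directly. The causes of these shifts were not tested. Counting errors from the implied reads were at most 1.95% at these peaks, and the fitted SD had a median of 0.19 on the log2 scale. The single S412A library has no replicate check.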
